A study of Mus musculus with 8 samples.

Results

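The genes described here are the nuclear genes whose symbols name subunits, isoforms or assembly factors of the respiratory chain and of ATP synthase, with cytochrome c, measured in mouse CD8 T cells. They were taken from the array's annotation by symbol: Cycs, Sdha to Sdhd, and symbols that start with Nduf, Uqcr, Cox4 to Cox8 or Atp5, from probe sets with 1 gene symbol. This gave 159 probe sets of 85 genes, out of 12393 genes on the array. A gene with several probe sets is represented by its brightest one over the 8 arrays. Complex I had 38 genes, complex II 4, complex III 8, complex IV 17 and complex V 17, and Cycs was counted apart. Of the 85, 82 passed the filter on low values, a mean over all arrays of at least 6.87 on the log2 scale, and were tested. The 3 that did not pass were isoforms of complex IV known from other tissues, and are described with that complex.

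The respiratory chain of the inner mitochondrial membrane carries electrons from NADH (complex I) and succinate (complex II) through complex III and cytochrome c to oxygen at complex IV. Complexes I, III and IV pump protons on the way, and complex V, the ATP synthase, uses their return to make ATP. Most subunits are encoded in the nucleus and a few in mitochondrial DNA, so both genomes supply each complex except complex II. Activated CD8 T cells combine strong glycolysis with respiration, and signalling through PD-1, the receptor of PD-L1, is known to alter T cell metabolism.

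The cells came from OT-1 mice, whose CD8 T cells carry 1 transgenic receptor for an ovalbumin (OVA) peptide. Activated T cells of each of 4 mice, A to D, were split over ID8 cells of 2 kinds, PD-L1-overexpressing or PD-L1-depleted; ID8 is a mouse ovarian cancer line. Both kinds of target were loaded with the peptide, the co-cultures lasted 4 h at 30 T cells per target cell, and the T cells were then recovered magnetically. Each mouse gave 1 array per target, 8 arrays in all and 4 per group, and this number limits the precision. The T cells had already been activated in culture before they met the targets, and there was no T cell sample without targets or with unmodified ID8 cells. All values below are deposited log2 expression values, and a difference between targets is overexpressing minus depleted.

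Of the labelled cell type, all 11 T cell markers on the array passed the filter, and the list mean was between 12.16 and 12.26 on every array. Target cell RNA was present to different degrees. The mean of 19 epithelial and mesothelial markers that passed the filter, of 35 on the array, was higher with PD-L1-overexpressing than with PD-L1-depleted targets by 0.84 in mouse A, by 0.71 in mouse C and by 0.76 in mouse D, whereas mouse B had a difference of -1.09. In bulk RNA, fewer cells of a type and less RNA per cell cannot be told apart. Over the 8003 tested genes the mean level of mice A to D was 9.42, 9.42, 9.41 and 9.42, so the members are described against nearly equal array means.

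Between targets rich and poor in PD-L1, the chain and ATP synthase genes were nearly level. None of the 82 tested members differed between targets in limma's paired test, adjusted over all 8003 genes, as was also the case for every gene tested (0% called). At an unadjusted p under 0.05 there were 2 members, Ndufb10 and Ndufc2, against 2.85% of all genes. The median difference was 0.0070 (-0.00039 after quantile normalisation) for the members and 0.0033 for all tested genes. Of the members 53 lay above 0 and 29 below, beside 4275 above and 3728 below of the 8003 tested genes. Single differences of members ran from -0.051 to 0.075. The outermost bounds of the 82 intervals (95%) of the difference lay at 0.903-fold and 1.13-fold. A 1.5-fold change in either direction was thus outside every interval, as it was for 7956 of the 8003 tested genes.

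Ndufb10, an accessory subunit of the membrane arm of complex I, had the largest positive difference. Its values in mice A to D were 10.86, 11.21, 11.22 and 11.23 with PD-L1-overexpressing targets and 10.80, 11.20, 11.15 and 11.07 with PD-L1-depleted targets. The difference was 0.075 ± 0.032 (SE, n = 4 pairs; adjusted p = 0.9995). The overexpressing value was above the depleted one in 4 of 4 mice, but the spread between mice was wider than that gap and the groups overlapped. Ndufc2, also an accessory subunit of complex I, had 12.51, 12.47, 12.49 and 12.49 with PD-L1-overexpressing targets, against 12.40, 12.44, 12.33 and 12.50 with PD-L1-depleted ones, with mouse D going the other way. The lowest difference belonged to Atp5mpl, a small membrane subunit of ATP synthase, at -0.051 ± 0.032 (SE; adjusted p = 0.9995), lower in 3 of 4 mice.

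The remaining members named for their place in this comparison lay closer to 0. Of the complex II subunits, Sdha, the catalytic flavoprotein, averaged 11.90 ± 0.079 with PD-L1-overexpressing targets, against 11.87 ± 0.074 with PD-L1-depleted ones (SD, n = 4 each), and Sdhb, the iron-sulfur subunit, 11.82 ± 0.063 and 11.83 ± 0.095. In complex III, Uqcrh, the hinge protein beside cytochrome c1, differed by -0.028 and Uqcrq, a small supernumerary subunit, by 0.018. In complex IV, Cox4i1, the general isoform of subunit 4, differed by 0.029 and Cox6a2, the heart and muscle isoform of subunit 6a, by -0.047. Atp5g2, 1 of 3 genes for the c subunit of the rotor ring, differed by 0.030. Members higher with PD-L1-overexpressing targets in 4 of 4 mice were Ndufb10, Ndufs4, Ndufv3 and Atp5g2, 4 of 82 against 5.84% of all genes, and 0 members were lower in 4 of 4 mice, against 4.69%.

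The small differences changed sign between mice. Member medians were -0.016 (mouse A), 0.038 (B), -0.0069 (C) and 0.012 (D), beside medians over all tested genes of 0.0012, 0.028, -0.020 and 0.0049. In mouse B, 69 of 82 members (84.2%) were higher with PD-L1-overexpressing targets, where all genes gave 61.3%. Mouse B is also the animal with less target cell marker signal on its PD-L1-overexpressing array. With the target cell marker mean as a covariate, 0 members were called between targets and their median difference was 0.017. Without mouse B, 176 of the 8003 genes (2.2%) were called between targets, of which 0 were members.

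**Figure D1:**
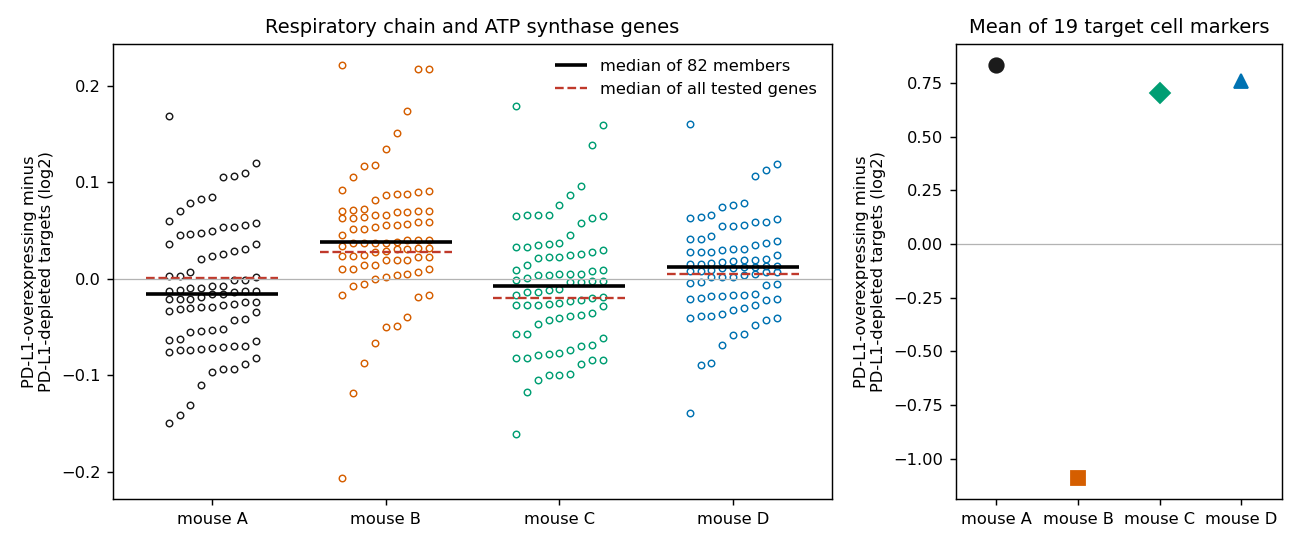
Difference between targets on the log2 scale (PD-L1-overexpressing minus PD-L1-depleted), by mouse: at left each point is 1 of 82 members, black bars are member medians and dashed red bars the medians of all 8003 tested genes; at right, points are the mean of 19 target cell markers. Member medians lie between -0.016 and 0.038, while the marker mean is positive in mice A, C and D, and -1.09 in mouse B.

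The animals, by contrast, differed in these genes. Limma's moderated F test between the 4 mice, with the target as covariate, called 37 of the 82 members, against 29.3% of all tested genes. By complex it called 15 of 38 members of complex I, 2 of 4 of complex II, 4 of 8 of complex III, 9 of 14 of complex IV, 7 of 17 of complex V, and not Cycs. Mice accounted for 85.6% of the members' variance, targets for 2.44% and the remainder for 12.0%, beside 74.6%, 4.97% and 20.5% over all genes. The members were also brighter, with a mean of 12.02 over the PD-L1-overexpressing arrays against 9.42 for all tested genes. Their median SE of the difference between targets was smaller, 0.026 against 0.045. The part of this precision in the higher shares and calls was not tested. The share of the mice was 78.8% in complex I and 92.5% in complex III. Each share pools the sums of squares over the genes of a set, so genes that vary widely weigh most. With 4 mice and 2 targets, mice would on average also take the larger share of mere noise. The error in the F test is how far the 2 arrays of an animal disagree once the target is taken into account, so its p-values describe these 4 animals. Both arrays of an animal come from its activated T cells, so the animal and the preparation of its cells cannot be told apart.

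Mouse A stood low and mouse D high. The members averaged 11.97 for mouse A, 12.01 for B, 12.03 for C and 12.06 for D. Set against the mean of the other 3 mice, mouse A had 33 members lower and 7 higher of 82, where 12.7% of all genes were lower and 18.1% higher. The median member difference was -0.059 in mouse A, while that of all genes was 0.022, so the members and the array as a whole lay on opposite sides of 0. Mouse A had the lowest mean of the 4 animals for 46 of 82 members (56.1%; 27.0% of all genes), and both of its arrays lay below the other 6 for 34 members (13.9% of all genes). Mouse D had 12 members higher and 0 lower (4.56% and 4.09% of all genes), with a median of 0.059. The count of members lower in mouse A was 21 without a variance trend (10.7% of all genes) and 20 without mouse D (8.85% of all genes). That of members higher in mouse D was 3 and 31 at its extremes over the settings tried. It was 3 without a trend (2.45% of all genes) and without mouse A (1.04%). With array weights (8.92%) and without mouse B (11.9%) it was 31. Mouse D had the highest mean for 40 members (48.8%; 21.7% of all genes), and both of its arrays lay above the other 6 for 23 members (7.45% of all genes). Mouse A is itself among the others that mouse D is set against: without mouse A the F test called 6 members, against 7.2% of all genes, and 3 were higher in mouse D (3.66%, against 1.04% of all genes).

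**Figure D2:**
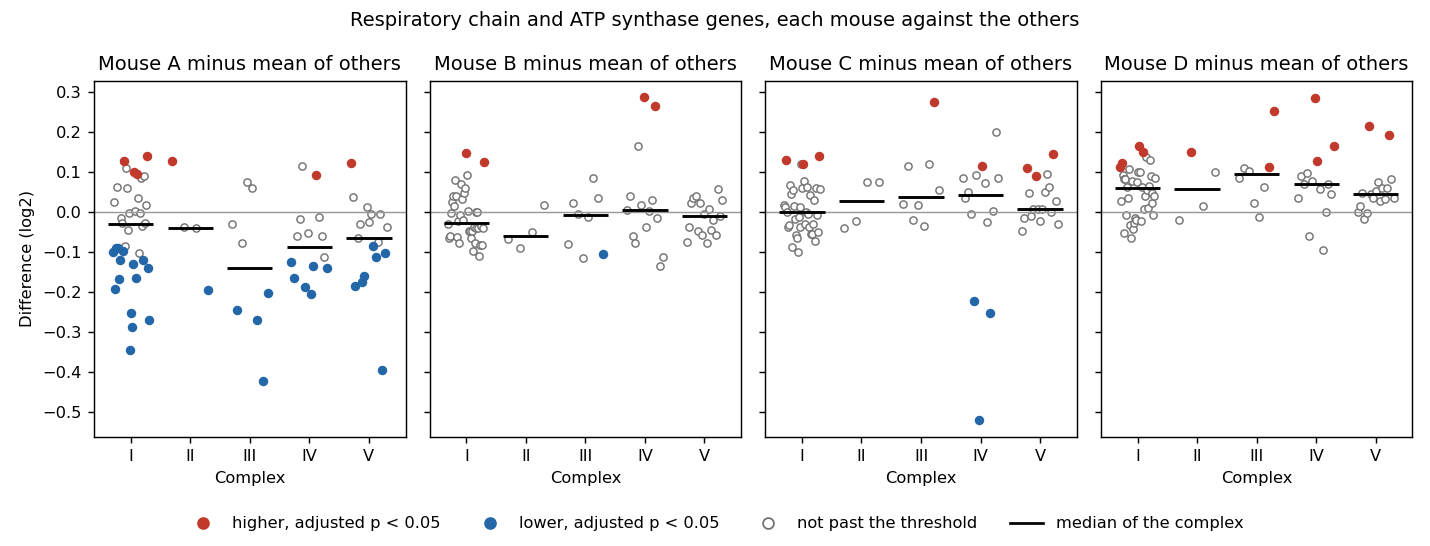
Difference of each mouse from the mean of the other 3 (log2) for the 81 tested members of complexes I to V, without Cycs; each point is a gene, filled red where higher and blue where lower at an adjusted p under 0.05, and black bars are the medians of a complex. Mouse A has 33 blue and 7 red points, and mouse D 12 red and 0 blue points.

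**Figure D3:**
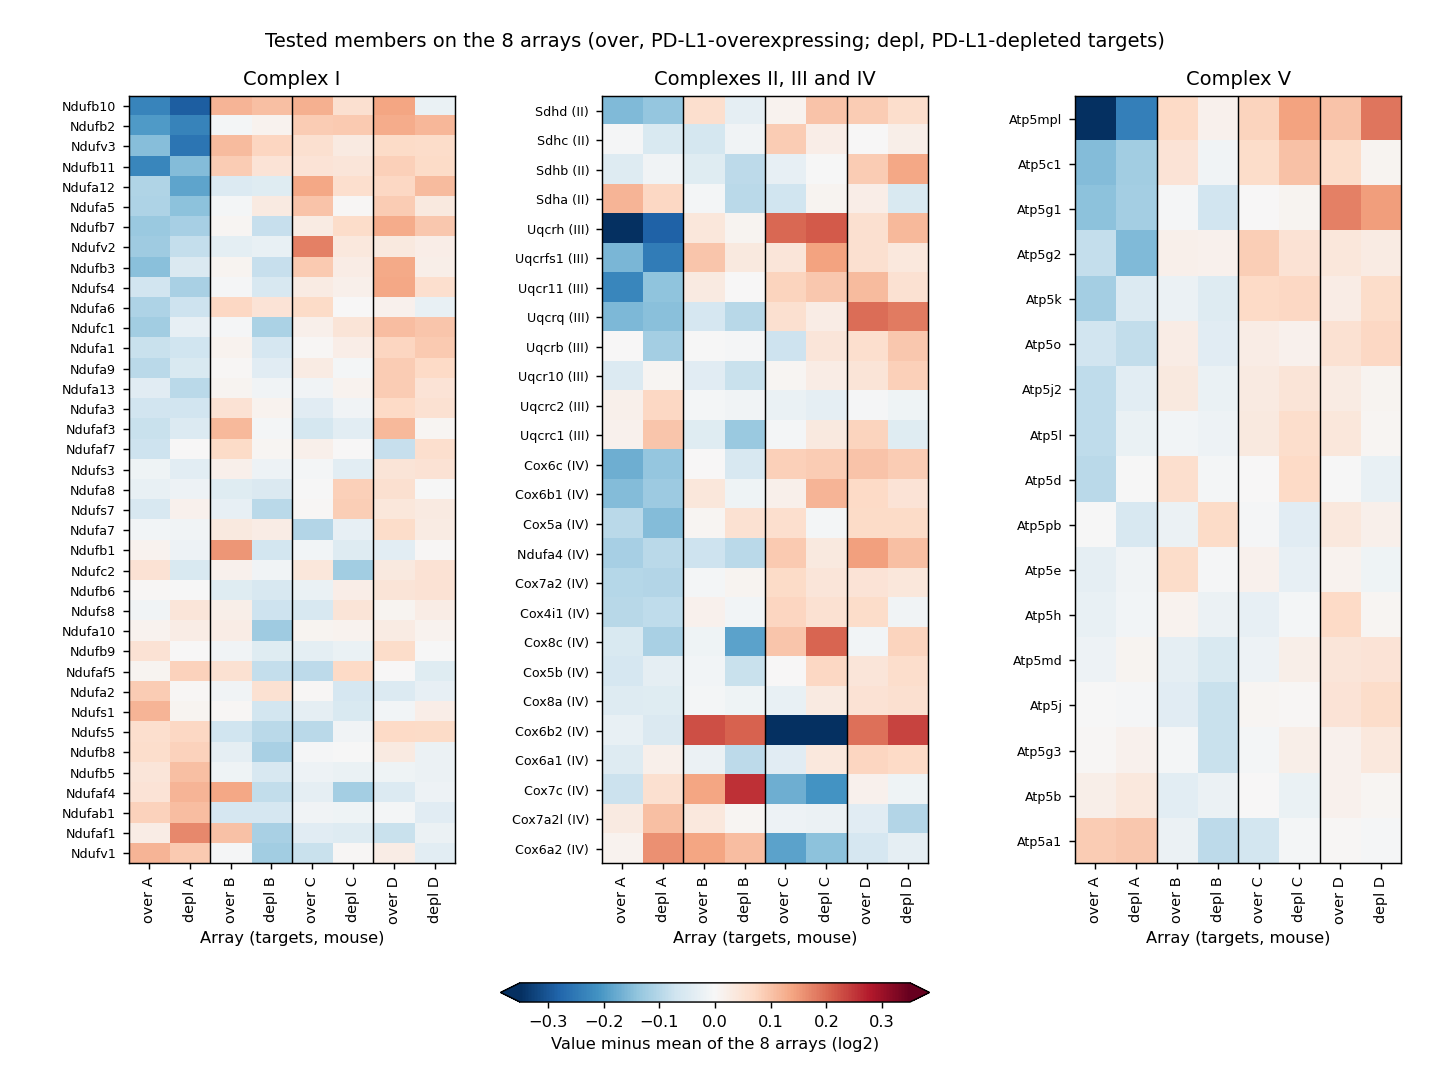
Each tested member of complexes I to V (rows, ordered within a complex by the difference of mouse A from the others) on the 8 arrays (columns, PD-L1-overexpressing left of PD-L1-depleted within a mouse), as the log2 value minus the gene's mean over the 8 arrays. The 2 columns of a mouse resemble each other in most rows, the upper rows of each complex are blue in mouse A, and Cox6b2, beyond the end of the scale in mouse C, has its lowest values there.

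Complex I had 15 members lower and 4 higher of 38 in mouse A, where 12.7% of all tested genes were lower and 18.1% higher. Of its 27 accessory subunits, which surround the catalytic core, 14 were lower in mouse A and 3 higher. Of the 6 core subunits on the list, 1 was lower and 1 higher, and of the 5 assembly factors 0 passed in either direction by the probe set standing for the gene. For the assembly factor Ndufaf4 that set differed by 0.11 in mouse A. A second, dimmer set of Ndufaf4 differed by 0.31 and passed in limma's contrast over all probe sets (adjusted p = 0.0050). Ndufb10 was 10.86 and 10.80 in mouse A, on its PD-L1-overexpressing and its PD-L1-depleted array, and between 11.07 and 11.23 in the other mice. The difference from the others was -0.35 ± 0.037 (SE; adjusted p = 1.7e-04), 0.787 of their mean level. Ndufb2, another accessory subunit of the membrane arm, was 12.02 and 11.99 in mouse A and between 12.21 and 12.35 in the others, a difference of -0.29 ± 0.026 (adjusted p = 6.1e-05). Both arrays of mouse A lay below all others for both genes. Ndufv3, a small subunit of the NADH-oxidising module, differed by -0.27, and Ndufv2, a core subunit of the same module, by -0.14. In that module Ndufv1, the core subunit that binds FMN and NADH, went the opposite way: 11.70 and 11.67 in mouse A against 11.46 to 11.61 in the other mice, a difference of 0.14 ± 0.040 (adjusted p = 0.026). Ndufab1, the mitochondrial acyl carrier protein, Ndufb5 and Ndufb8 were the other members of complex I higher in mouse A, by 0.13, 0.10 and 0.09.

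Complex II, which also belongs to the TCA cycle, was split. Sdhd, an anchor in the membrane, was lower in mouse A at 11.88 and 11.90, against 12.01 to 12.14 in the others, a difference of -0.19 ± 0.036 (adjusted p = 0.0039). Sdha was higher in mouse A at 12.00 and 11.96, against 11.79 to 11.91, a difference of 0.13 ± 0.037 (adjusted p = 0.027). For these genes the arrays of mouse A lay entirely below and entirely above the rest. Sdhb was highest in mouse D, at 11.91 and 11.96 against 11.73 to 11.82 in the other mice (difference 0.15 ± 0.030, adjusted p = 0.018), and Sdhc, the other anchor, passed in no mouse. A second, dimmer probe set of Sdha differed by -0.06 in mouse A and did not pass.

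Complex III held the member with the smallest p in mouse A. Uqcrh was 12.75, 13.14, 13.30 and 13.16 in mice A to D with PD-L1-overexpressing targets and 12.82, 13.11, 13.32 and 13.22 with PD-L1-depleted targets. Mouse A was lowest and mouse C highest on both targets, and no array of either came within the range of the others. The difference of mouse A from the others was -0.42 ± 0.026 (SE; adjusted p = 5.4e-06), or 0.746 of their level, and that of mouse C was 0.28 ± 0.026 (adjusted p = 3.7e-04). Uqcrfs1, the Rieske iron-sulfur protein, was lower in mouse A by 0.27 (difference -0.27 ± 0.039, adjusted p = 9.2e-04) and Uqcr11 by 0.25 (difference -0.25). Uqcrq was ordered from mouse A to mouse D: 12.97 and 12.98 (A), 13.07 and 13.03 (B), 13.18 and 13.15 (C), and 13.32 and 13.31 (D). It was lower than the others in mouse A (-0.20) and mouse B (-0.10) and higher in mouse D (0.25 ± 0.022, adjusted p = 2.4e-04). The core proteins Uqcrc1 and Uqcrc2 had differences of 0.07 and 0.06 in mouse A that did not pass.

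In complex IV, all 9 main isoforms had a difference below 0 in mouse A, and 5 of them passed: Cox6c, Cox6b1, Cox5a, Cox7a2 and Cox4i1. Of the 8003 tested genes, 3465 had a difference below 0 in mouse A, and 12.7% were called lower. Cox6c was 13.01 and 13.04 in mouse A and between 13.12 and 13.28 in the others, a difference of -0.20 ± 0.024 (adjusted p = 3.1e-04). Ndufa4, a complex IV subunit once assigned to complex I, was lower in mouse A (-0.14) and higher in mouse D (0.17). Cox7a2l, a factor that joins complexes III and IV into supercomplexes, was higher in mouse A by 0.09. Cox6b2, the testis isoform of subunit 6b, was 9.26, 9.51, 8.86 and 9.48 in mice A to D with PD-L1-overexpressing targets and 9.23, 9.49, 8.94 and 9.52 with PD-L1-depleted targets. It was lowest in mouse C (difference -0.52 ± 0.045, adjusted p = 2.1e-04, 0.697 of the others' level) and higher than the mean of the others in B (0.29) and D (0.29). Cox6a2 was lower in mouse C too (-0.22), as was the main isoform Cox7c (-0.25), while Cox8c, a testis isoform, passed in no mouse. The probe set standing for Cox7c averaged 9.43 over the 8 arrays, near the 9.11 of Cox6a2, and its other set averaged 8.11. Each of the other main isoforms averaged 13.18 or more, so how well these sets read Cox7c is uncertain. Cox4i2, Cox7a1 and Cox8b had means of 6.55, 5.69 and 6.73 over the 8 arrays, under the filter, and were not tested.

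The ATP synthase had 7 members lower and 1 higher of 17 in mouse A, against 12.7% and 18.1% of all tested genes. Of the 5 head and stalk genes, Atp5c1, the central gamma subunit, was lower (-0.18) and Atp5a1, the alpha subunit, higher. Atp5a1 was 13.59 on both arrays of mouse A against 13.41 to 13.50 in the others, a difference of 0.12 ± 0.026 (adjusted p = 0.0078), while Atp5b, the catalytic beta subunit, differed by 0.04 and did not pass. Of the 3 c-ring genes, Atp5g1 (-0.18) and Atp5g2 (-0.16) were lower in mouse A and Atp5g3 (0.01) did not pass. Atp5g1 was 12.26 and 12.23 in mouse D, above the 11.94 to 12.09 of the other mice (difference 0.21 ± 0.029, adjusted p = 0.0022). Atp5mpl was 11.44 and 11.55 in mouse A and between 11.81 and 11.98 in the others, with no overlap (difference -0.39 ± 0.036, adjusted p = 7.4e-05). Atp5k and Atp5j2, which are also small membrane subunits, and the peripheral-stalk gene Atp5o were lower in mouse A as well, by 0.11, 0.08 and 0.10 (differences of -0.11, -0.08 and -0.10).

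**Figure D4:**
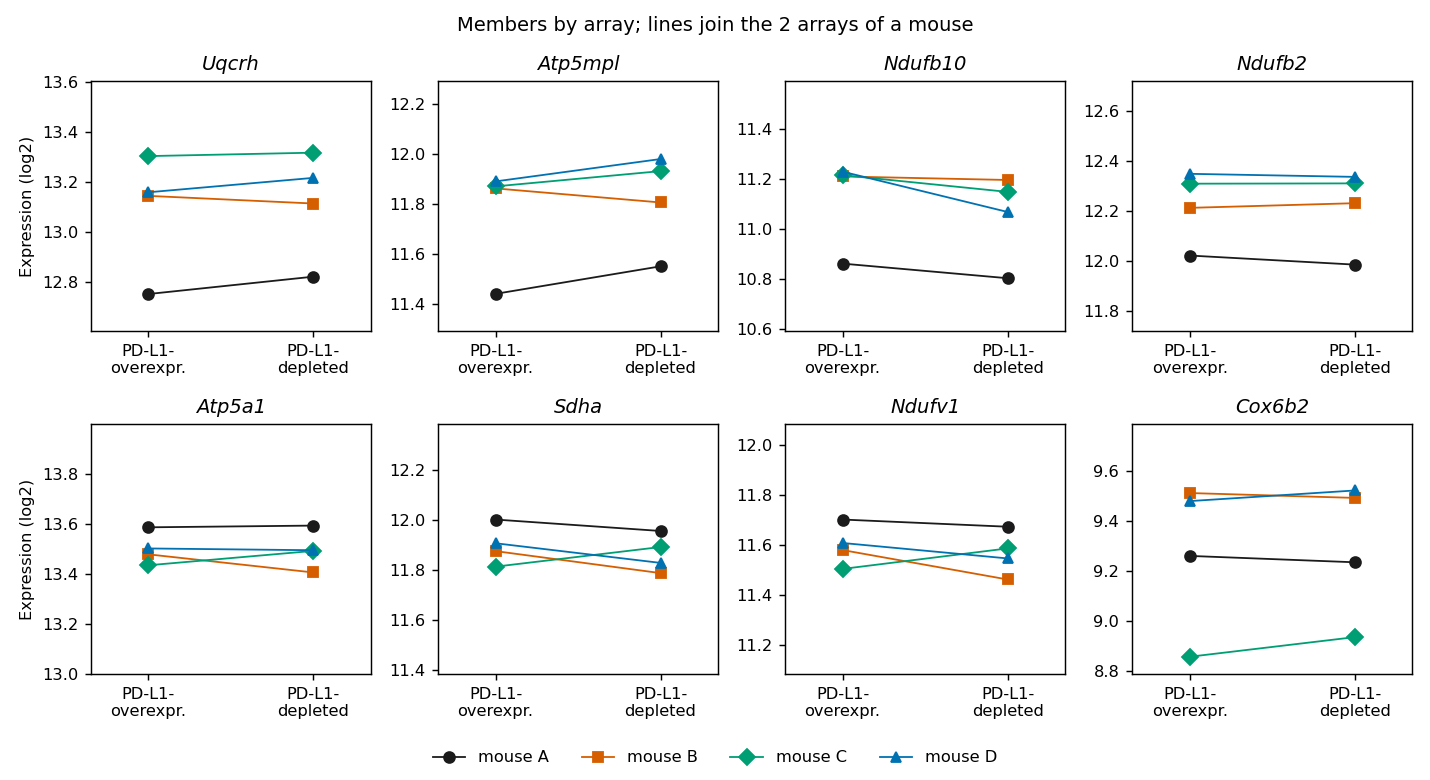
Deposited log2 values of 8 members on each array, with PD-L1-overexpressing targets at left and PD-L1-depleted at right in each panel and a line joining the arrays of 1 mouse; every vertical axis spans 1 log2 unit. Mouse A lies below the other mice for Uqcrh, Atp5mpl, Ndufb10 and Ndufb2 and above them for Atp5a1, Sdha and Ndufv1, and mouse C lies lowest for Cox6b2.

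Mice B and C had fewer calls. Mouse B had 4 members higher (Ndufb10, Ndufv3, Cox6b2 and Cox7c) and 1 lower (Uqcrq), where 6.3% of all genes were higher and 2.96% lower. After quantile normalisation it had 3 higher and 4 lower (4.76% and 3.59% of all genes), and after median centring 7 higher and 0 lower (8.87% and 2.36% of all genes). The shares of all genes moved the same way as the members' counts between these scalings, and mouse B gave no direction that held under each scaling. Mouse C had 8 higher and 3 lower, where 3.09% of all genes were higher and 5.35% lower. The 8 were Ndufa12, Ndufb2, Ndufv2, Uqcrh, Cox6c, Atp5c1, Atp5g2 and Atp5mpl, each one of them also lower in mouse A. Mouse A is part of the mean that mouse C is set against, so these calls are not independent of each other. Without mouse B, the F test between the other 3 animals called 53 members, against 44.4% of all genes.

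The brightest of the 3 probe sets of cytochrome c, which stands for the gene, did not follow the mice. It gave Cycs values of 12.87, 12.75, 12.97 and 12.86 in mice A to D with PD-L1-overexpressing targets and 12.70, 12.96, 12.79 and 12.93 with PD-L1-depleted targets. Mice accounted for 18.8% of its variance and the remainder, which includes the opposite differences of animals, for 80.2%. Its difference between targets was 0.17 (mouse A), -0.21 (B), 0.18 (C) and -0.07 (D). ND5, a complex I subunit and the 1 mitochondrially encoded chain gene with a probe set of its own here, had differences of 0.13, -0.16, 0.09 and -0.04 in the same mice. For mice A, B and C both genes have the sign of the target cell marker difference, and for D they do not; the part of target cell RNA in them was not tested. The second probe set of Cycs, which was nearly as bright, went otherwise, with 12.74, 12.68, 12.72 and 12.80 with PD-L1-overexpressing targets, against 12.73, 12.63, 12.78 and 12.81 with PD-L1-depleted ones. Its differences between targets were 0.0068, 0.056, -0.065 and -0.0061, so that mice B and C had the opposite sign to the brightest set, and the sign of the marker difference was shared in mouse A alone. The arrays of a mouse lay close together in this set, lowest in mouse B (difference -0.11) and highest in D (0.10), and the F test between mice, over all probe sets, gave an adjusted p of 0.058. The third and dimmest set gave 0.91.

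Other cell types and RNA quality were measured beside the mouse differences. Of the 13 B cell markers on the array 5 passed the filter, and their mean over mice A to D was 9.51, 10.58, 9.70 and 10.28, while the defining markers Cd79a, Cd79b, Ms4a1 and Pax5 were under the filter. The target cell marker mean was 8.21, 8.36, 8.65 and 8.53 in the same mice. The 3 macrophage and dendritic cell markers of 15 that passed averaged 9.18, 9.22, 9.34 and 9.23, with Cd14, Adgre1 and Itgax under the filter. Of 3 NK cell markers, Nkg7, a granule gene that cytotoxic T cells also express, alone passed, at 13.55, 13.82, 13.86 and 13.90, while Ncr1 and Klra8 were under the filter. Nkg7 was lower in mouse A (difference -0.31, adjusted p = 7.9e-06) and higher in C (0.10) and D (0.16), the same order of the mice as the members' mean. All 4 of these levels were lowest in mouse A. Markers of 2 further cell types were lowest in mouse B instead. The 3 CD4 and regulatory T cell markers of 6 that passed averaged 9.25, 9.22, 9.27 and 9.24 in mice A to D. The 1 neutrophil marker of 5 that passed was at 7.04, 6.92, 7.14 and 7.06, near the filter. With the target cell marker mean as a covariate, 39 members were lower and 8 higher in mouse A, against 17.1% and 23.4% of all genes; the part of the other markers was not tested. T cell markers went both ways in mouse A, with 3 higher and 4 lower of 11, Cd5 by 0.72 and Cd247 by -0.28. Without the covariate, 18.1% of all tested genes were higher and 12.7% lower in mouse A. The 3' minus 5' signal of the Gapdh control probe sets was -0.10 and -0.09 in mouse A and between -0.11 and -0.08 in the others, and that of actin was 0.20 and 0.19 against 0.17 to 0.24. The pyruvate carboxylase control separated some mice, at 0.39 and 0.38 in mouse A, 0.35 and 0.38 in B, 0.50 and 0.55 in C and 0.29 and 0.31 in D. The transferrin receptor control was 2.54 and 2.41 in mouse A against 2.31 to 2.52 in the others, so 1 array of mouse A was above all of theirs. The part of RNA quality in the members' values was not tested.

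Several genes had more than 1 probe set. In mouse A, 22 of the 45 members with several tested probe sets were called by the set standing for the gene. The next brightest set had the same sign in 18 of them and was called the same way in 11, and no gene had probe sets called in opposite directions in any mouse. The next brightest set had the opposite sign in mouse A for Ndufab1 (-0.16, against 0.13), Atp5c1 (0.12, against -0.18), Uqcrq (0.16, against -0.20) and Sdha (-0.06, against 0.13). None of these second sets passed. Of the 85 sets standing for a gene, 43 match 1 transcript sequence only, 24 match several transcripts of 1 gene, 12 match transcripts of several genes and 6 may cross-match other sequences, by the suffixes of the array's naming. Pseudogene copies of chain genes could share signal in the last 2 kinds, and such members are uncertain to that extent; Uqcrq, Cox7c, Atp5c1, Atp5j2, Ndufab1 and Ndufc2 are among the 12.

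Lists of genes that work around the chain were read the same way in mouse A, where 18.1% of all tested genes were higher and 12.7% lower. Chain subunits and assembly factors outside the symbol rule had 8 higher and 9 lower of 41 tested, with a median of 0.04. Surf1, a complex IV assembly factor, was 10.45 and 10.49 in mouse A against 10.75 to 10.90 in the others (difference -0.34 ± 0.043, adjusted p = 4.6e-04), and Sdhaf4, a complex II assembly factor, differed by -0.30. TCA cycle and pyruvate entry genes had 5 higher and 3 lower of 20, with Pdk1, which inhibits pyruvate dehydrogenase, lower (-0.37) and Mpc1, part of the pyruvate carrier, higher (0.21). Carriers and channels had 3 and 3 of 15, with the ADP/ATP carrier Slc25a5 lower (-0.14) and Slc25a39, a mitochondrial glutathione carrier, higher (0.18). Of 33 genes for inner membrane structure, import and quality control, 11 rose above and 3 fell below the others (median difference 0.09), among them the matrix chaperones Hspa9 (0.28) and Hspd1 (0.13).

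Regulators of mitochondrial gene expression had 2 higher and 0 lower of 17 in mouse A, against 18.1% and 12.7% of all tested genes. Pprc1, a coactivator related to PGC-1, was 10.29 and 10.18 in mouse A against 9.79 to 9.98 in the others, a difference of 0.36 ± 0.041 (adjusted p = 2.7e-04). Hif1a, the oxygen-sensitive transcription factor, was lower in mouse C (-0.24) and had a difference of 0.08 in mouse A that did not pass. Peroxide and superoxide defence had 2 higher and 0 lower of 8, with Gpx4, which reduces lipid peroxides, higher in mouse A (0.23) and Gsr, glutathione reductase, higher in mouse D (0.25). Of the genes in these lists, 0 were called between targets in limma's test.

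**Figure D5:**
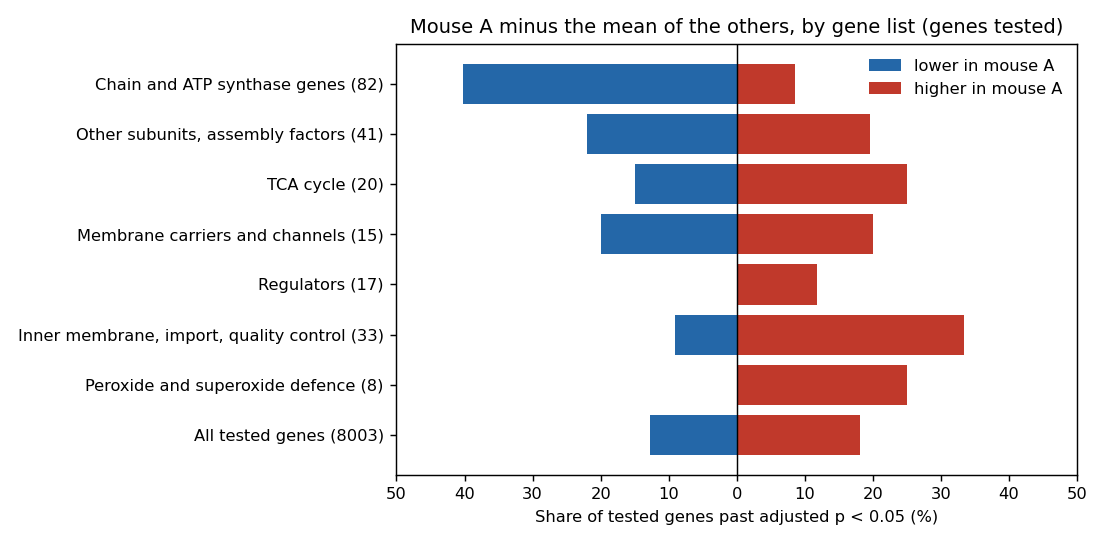
Share of tested genes that were lower (blue, to the left) or higher (red, to the right) in mouse A than the mean of the other mice at an adjusted p under 0.05, for the chain and ATP synthase genes, the surrounding mitochondrial lists and all tested genes, with the number tested in parentheses. Chain and ATP synthase genes have 33 lower and 7 higher of 82, and inner membrane, import and quality control genes 3 lower and 11 higher of 33. All tested genes have 12.7% lower and 18.1% higher.

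Promoters are shown for members that went opposite ways in mouse A, to set their sequences side by side; these 5 are, among called members with 1 promoter in the table that could be shown, the 3 lowest and the 2 highest in mouse A, and were so chosen after their values were seen. RefSeq's promoter table (GRCm38.p6, 300 bases, 250 before and 50 from the gene start) held 76 promoters of 71 members. The stretches below run 5' to 3' on the gene's strand, 150 bases before to 30 bases from the start. Capitals mark matches, on either strand, to the NRF1 motif GCGCANGCG or the ETS motif CCGGAAG, which on the opposite strand reads CTTCCGG. Uqcrh lies at chr4:116075041-116075220 on the minus strand, Ndufb10 at chr17:24724394-24724573 (minus) and Ndufb2 at chr6:39592415-39592594 (plus). Of the members higher in mouse A, Ndufv1 lies at chr19:4012726-4012905 (minus) and Sdha at chr13:74350211-74350390 (minus).
Uqcrh: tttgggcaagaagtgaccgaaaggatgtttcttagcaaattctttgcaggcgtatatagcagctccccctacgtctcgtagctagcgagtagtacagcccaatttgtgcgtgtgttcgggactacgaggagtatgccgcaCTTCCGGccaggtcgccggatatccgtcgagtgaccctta
Ndufb10: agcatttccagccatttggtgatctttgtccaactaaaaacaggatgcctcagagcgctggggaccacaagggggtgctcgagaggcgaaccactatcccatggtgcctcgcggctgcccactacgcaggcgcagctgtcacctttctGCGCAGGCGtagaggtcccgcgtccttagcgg
Ndufb2: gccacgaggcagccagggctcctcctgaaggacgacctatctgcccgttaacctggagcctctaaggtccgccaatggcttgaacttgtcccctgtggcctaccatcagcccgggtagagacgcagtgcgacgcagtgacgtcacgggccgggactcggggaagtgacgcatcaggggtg
Ndufv1: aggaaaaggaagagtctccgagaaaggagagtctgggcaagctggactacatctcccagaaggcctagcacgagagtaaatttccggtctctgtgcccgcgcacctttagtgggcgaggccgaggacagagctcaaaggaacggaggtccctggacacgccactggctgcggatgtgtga
Sdha: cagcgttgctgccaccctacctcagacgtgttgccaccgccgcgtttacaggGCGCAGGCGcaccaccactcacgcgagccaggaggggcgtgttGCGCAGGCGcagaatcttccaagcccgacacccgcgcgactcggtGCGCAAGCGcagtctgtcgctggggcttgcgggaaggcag
Uqcrh holds 1 ETS match, Ndufb10 holds 1 NRF1 match and Sdha holds 3, while Ndufb2 and Ndufv1 hold none in the printed stretch.

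NRF1 and ETS factors (NRF2 among them), YY1 and SP1 are known regulators of nuclear genes for the chain. The NRF1 motif was found in 27.6% of the members' promoters, against 6.25% of all 32851 promoters in the table and 8.58% of those of protein-coding genes. The ETS motif was in 23.7%, against 8.86% and 11.6%. The YY1 motif AANATGGC was in 21.1%, against 6.05% and 6.37%, with 12 of 37 promoters of complex I, 4 of 18 of complex V and 0 in complexes II to IV. The SP1 motif GGGGCGGGG was in 15.8%, against 11.4% and 15.4%. All motifs were searched on both strands. Matches of different motifs overlapped in 0 member promoters, 6 promoters held both an NRF1 and an ETS match, and 27 held none of the motifs. Among members lower in mouse A, 32.3% of 31 promoters held the NRF1 motif and 19.4% the ETS motif, against 24.4% and 26.7% of the 45 promoters of the other members. The YY1 motif was in 19.4% and 22.2%, and the SP1 motif in 12.9% and 17.8%, of these sets. A match describes letters in this window and shows no binding.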

How the data were processed

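Total RNA of CD8 T cells was labelled with biotin for an Affymetrix 3' expression array, per the labels' protocols. The authors deposited 1 value per probe set and array. The log2 scale was read from these deposited values (3.60 to 15.24); how probes were summarised and normalised is not given in the sources used here. Sorted values of the 8 arrays differed by at most 0.167 at any rank, and a shift common to most genes would therefore not show.

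Of 22690 probe sets, 64 controls were left out, and genes were named from the platform annotation where it gave 1 symbol (20380; 691 had several and 1555 none). The probe set with the highest mean stood for a gene, and genes under the 40th percentile of probe set means (6.87) were not tested. Tests used limma 3.58.1 under R 4.3.3, with lmFit and a trended eBayes; they were two-sided, and p-values were adjusted over 8003 genes by Benjamini and Hochberg's method, with a threshold of 0.05. Targets were compared with the mouse as a block, since the series design says that cells of each mouse were divided; deviations of same-mouse arrays correlated across genes at 0.82, 0.16, 0.61 and 0.64 in A to D. The labels do not say that a mouse's co-cultures were replicated, so p-values measure the spread between these arrays, which may be technical. Mice were compared with the target as covariate.

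Members and lists were chosen with earlier results of these data known. By rule, the text names per complex the 2 members with the smallest p between targets and the 3 with the smallest p between mice, Cycs, the tissue isoforms of complex IV and up to 2 genes per surrounding list; other members and genes named were chosen after their values were seen. Alternatives changed the normalisation, filter, probe set rule, variance model, threshold, block, array weights, a target cell marker covariate and the mice included. The steps were tested on simulated data. The table held 0 columns of other samples.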

Additional observations from a re-analysis of the deposited data

Results flagged for a closer look

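In 176 groups of 4 arrays, 1 group for each target and each of the 82 tested members, the mean of all members and the mean of each complex, 13 had an array whose gap to its nearest neighbour took up more of the group's range than Dixon's critical value. Chance passes it in about 1 of 20 groups (8.8 expected here). Mouse A was the lowest array with PD-L1-overexpressing targets for Atp5c1 (a gap of 0.918 of the range), Atp5j2 (0.963), Atp5mpl (0.938), Ndufb10 (0.948) and Ndufb11 (0.869), and with PD-L1-depleted targets for Atp5g2 (0.835), Ndufb11 (0.89) and Ndufv3 (0.87). It was the highest for Ndufb5 with PD-L1-overexpressing targets (0.941). Mouse B was the lowest with PD-L1-depleted targets for Ndufa10 (0.909) and Ndufs8 (0.841). Mouse D was the highest for Sdhb with PD-L1-overexpressing targets (0.892) and for Ndufaf7 with PD-L1-depleted targets (0.922).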

How the results depend on the processing

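No member was called between targets under any alternative tried, without the replicate block (0) and with it as a random effect (0) included, and the median difference stayed between -0.0036 and 0.017. Members called between mice numbered 37 as reported, 43 with no replicate block, 16 without a variance trend, 21 at a threshold of 0.01, 58 with the target cell markers as covariate, and 6 to 53 on leaving out 1 mouse. Of all genes, this F test called 29.3% as reported, 7.2% without mouse A (6 members) and 44.4% without mouse B (53 members). Its share of all genes is not given here for the other settings, so those counts cannot be set against it. Members lower in mouse A, 33 as reported, were 21 without a trend, 21 at 0.01 and 20 to 41 on leaving out a mouse, and those higher in it, 7 as reported, were 4 with probe sets averaged, 1 without a trend, 2 at 0.01 and 2 to 10 on leaving out a mouse. In mouse B the higher count was 7 with median centring, 2 without a trend, 1 with array weights, 1 at 0.01 and 7 with the covariate. Its lower count was 2 with no replicate block, 4 after quantile normalisation, 0 with median centring, without a trend, with array weights and at 0.01, 15 with the covariate and 0 to 5 on leaving out a mouse. In mouse C the higher count was 5 with no filter, 1 without a trend, 1 at 0.01, 19 with the covariate and 1 to 19 on leaving out a mouse, and the lower count was 1 at 0.01 and 2 to 6 on leaving out a mouse. In mouse D the higher count was 21 with no replicate block, 3 without a trend, 31 with array weights, 4 at 0.01, 30 with the covariate and 3 to 31 on leaving out a mouse, and the lower count was 1 with no replicate block, with median centring, the mean of probe sets, robust variances, array weights and the covariate and 0 to 1 on leaving out a mouse. The shares of all genes moved as well. For calls higher in mouse D they were 4.56% as reported, 5.69% with no replicate block, 2.45% without a trend, 8.92% with array weights, 2.05% at 0.01, 9.83% with the covariate and 1.04% to 11.9% on leaving out a mouse, and for calls lower in mouse A 12.7% as reported and 7.66% to 17.8% over the alternatives. The members' share was above that of all genes for both in each alternative. For the other counts, the shares of all genes ran over the alternatives from 9.26% to 26.1% (higher in A), 2.74% to 13.4% and 0.837% to 10.8% (higher and lower in B), 1.02% to 8.52% and 1.66% to 13.7% (in C) and 1.07% to 10.6% (lower in D). The cause of these changes was not tested, except that a lower threshold leaves fewer calls by construction.

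Signs turned for Uqcrq (-0.041) and Atp5g2 (-0.013) between targets with the mean of the probe sets, for Sdhb (0.00054) between targets with the covariate, for Cox6b2 in mouse A without mouse B (0.049) or D (0.048), and for Sdhb in mouse A without D (0.013); none of these 6 values passed the threshold. On leaving out a mouse, the difference in mouse A ran from -0.25 to 0.049 for Cox6b2, which passed without mouse C, and from -0.076 to 0.013 for Sdhb, which passed without mouse B. For the members named between mice, the F test lost 20 calls and gained 3 over the alternatives and kept its side of the threshold in 202 cases, and mouse A lost 9, gained 2 and kept 196. The mouse as a random effect was run for the targets alone. Probe sets near the floor and 1 array per mouse and target limit what these arrays can resolve.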
